A study of Mus musculus with 4 samples.

Results

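A total of 9 genes of the hepatic fasting program were examined, out of 35739 genes in the abundance table of *Usp21* KO and WT mouse livers. They are the gluconeogenic enzymes and carriers *G6pc1*, *Pck1*, *Fbp1*, *Pcx* and *Slc37a4*, the insulin-repressed gene *Igfbp1*, and the regulators *Foxo1*, *Crtc2* and *Sik1*. The genes were chosen from their roles together with the values they had in this same comparison of KO with WT livers, so their differences between genotypes are given as a description, without a test. *Usp21* encodes a deubiquitinating enzyme, and the comparison asks which liver transcripts differ when it is disrupted in the whole animal.

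RNA-seq was performed on livers of *Usp21* KO mice (labelled replicates 1 and 3) and of their WT littermates (labelled replicates 2 and 3), aged 10 to 11 weeks, of a mixed genetic background that includes B6, and on a normal diet. The KO allele is constitutive and lacks exons 3 and 4 after excision by Cre (the Cre line is not named), so the deletion is present in every tissue and not in hepatocytes alone. Whether the mice were fed or fasted when the livers were taken, and at what time of day, is not given in the sources used here. WT replicate 1 and KO replicate 2 were not analysed here. Abundance is in TPM (a transcript abundance scaled for transcript length and to one total per library), and differences are KO minus WT means of log2(TPM + 1) with the standard error (SE) from limma.

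The liver makes glucose from lactate, amino acids and glycerol between meals. Pyruvate carboxylase and the cytosolic phosphoenolpyruvate carboxykinase open the pathway, fructose-1,6-bisphosphatase acts in its middle, and the glucose-6-phosphate transporter with glucose-6-phosphatase ends it in the endoplasmic reticulum. Glucagon acts through cAMP, the factor CREB and its coactivator CRTC2, which SIK1 restrains, while insulin acts through Akt to keep FOXO1 out of the nucleus. Much of this control is exerted on the proteins, by phosphorylation, and is not visible in transcript levels.

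Promoter sequences carry the elements through which these signals are known to reach the genes, and 7 of the 9 genes matched a RefSeq promoter entry (GRCm38.p6). *Crtc2* and *Sik1* did not. The bases before both the RefSeq start and the GENCODE start are shown 5′ to 3′ on the gene's strand for the 3 target genes with the higher KO values, and for *Fbp1* as a gene of the same pathway with a lower KO value. Capitals mark any match, on either strand, to the 6 motifs searched.
Pck1, chr2:173152823-173153047: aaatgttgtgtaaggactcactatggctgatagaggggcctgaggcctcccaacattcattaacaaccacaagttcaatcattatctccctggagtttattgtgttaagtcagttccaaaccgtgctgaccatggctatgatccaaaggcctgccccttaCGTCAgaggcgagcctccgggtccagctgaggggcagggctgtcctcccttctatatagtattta
G6pc1, chr11:101367466-101367560: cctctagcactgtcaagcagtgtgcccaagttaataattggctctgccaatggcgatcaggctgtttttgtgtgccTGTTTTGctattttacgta
Igfbp1, chr11:7197537-7197781: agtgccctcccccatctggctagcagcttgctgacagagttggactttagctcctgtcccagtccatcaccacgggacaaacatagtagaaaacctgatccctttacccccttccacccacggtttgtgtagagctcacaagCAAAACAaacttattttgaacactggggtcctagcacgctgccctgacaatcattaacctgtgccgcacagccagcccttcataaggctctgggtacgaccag
Fbp1, chr13:62888283-62888532: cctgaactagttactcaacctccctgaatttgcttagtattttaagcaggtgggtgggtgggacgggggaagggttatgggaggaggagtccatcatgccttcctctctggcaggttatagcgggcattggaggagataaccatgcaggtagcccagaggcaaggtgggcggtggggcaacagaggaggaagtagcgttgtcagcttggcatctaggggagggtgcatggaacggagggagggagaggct

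Distances below are from the RefSeq start. The printed *Pck1*, *G6pc1* and *Igfbp1* sequences stop before the GENCODE start, and their last bases lie 26, 156 and 6 bases before the RefSeq start. The capitals in the *Pck1* promoter are the half-site of the cAMP response element (TGACG, here as CGTCA), which began 90 bases before the RefSeq start. The half-site was also present before RefSeq starts of *Slc37a4*, 61 bases from one and 82 bases, in the other orientation, from another. Both of these sites lie after the GENCODE start of *Slc37a4* (chr9:44396852) and so within the GENCODE gene. Of all 32851 promoter entries, 17.8% hold the half-site in their 250 bases before the start. The capitals in the *G6pc1* and *Igfbp1* promoters are the insulin response sequence (TGTTTTG, or CAAAACA on the other strand), to which FOXO factors are known to bind. It began 174 bases before the *G6pc1* RefSeq start and 108 bases before the *Igfbp1* RefSeq start, and 5.56% of promoters hold it. The E-box CACGTG, bound by the CLOCK and BMAL1 pair among others, was found 248 bases before a start of *Pcx* and in 6.02% of promoters. In these windows there was no match to TGTTTAC (the FOXO consensus, 3.17% of promoters), TGTTCT (the glucocorticoid receptor half-site, 16.1%) or TTATGNAA (the D-box of DBP and NFIL3, 3.07%) in any of the 7 genes. No match overlapped one of another motif. These letters are a description of the windows and not of binding in these livers.

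All 9 genes averaged 1 TPM or more over the libraries, the filter that 9581 genes passed. *Pck1* and *Fbp1* were among the most abundant transcripts of the liver, above 98.5% and 98.1% of the tested genes. *Pcx*, *G6pc1* and *Slc37a4* lay above 89.6%, 89.1% and 88.6%, and *Igfbp1* above 74.3%. The regulators were far less abundant, *Crtc2* near the middle (50.6%), *Foxo1* below it (42.9%) and *Sik1* close to the filter (12.3%).

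**Figure D1:**
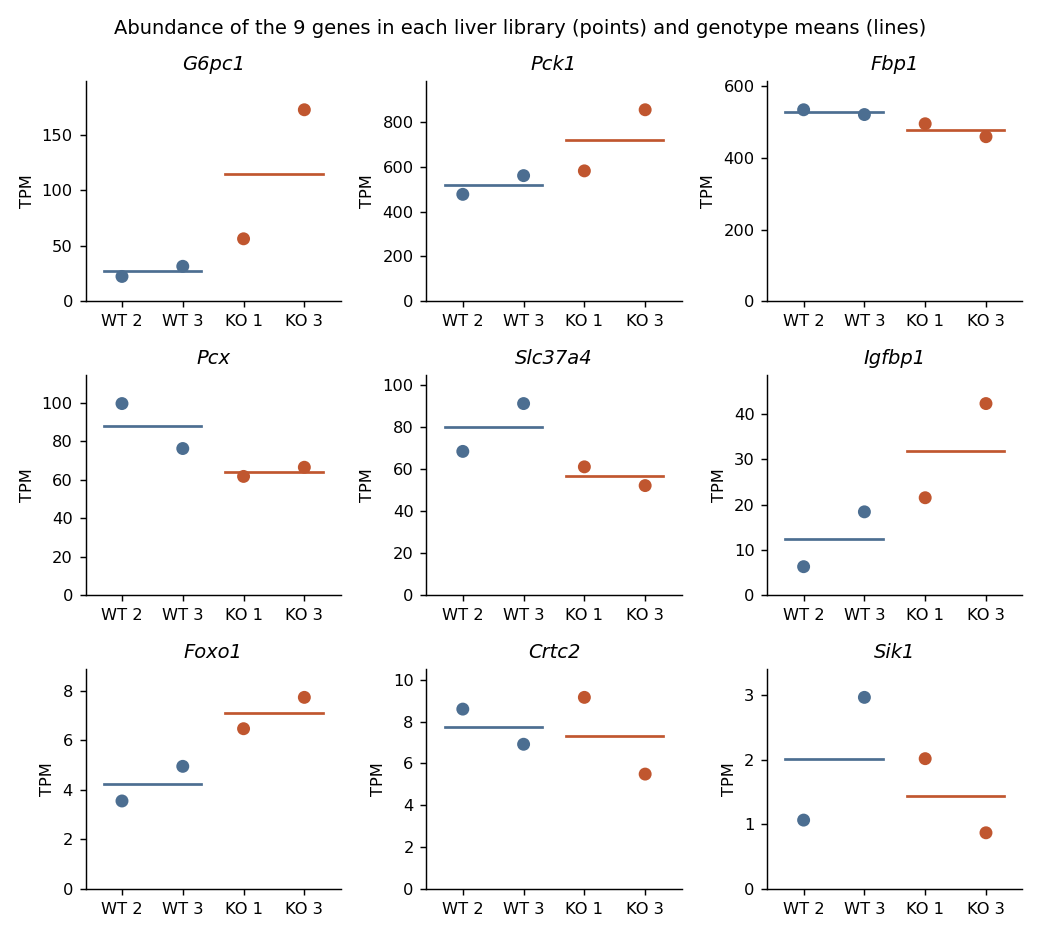
TPM (vertical axes, each starting at 0) of the 9 genes in each of the 4 liver libraries (horizontal axes, WT in blue and *Usp21* KO in red), with lines at the genotype means. *G6pc1*, *Pck1*, *Igfbp1* and *Foxo1* lie higher in both KO libraries, *Fbp1*, *Pcx* and *Slc37a4* lie lower in both, and the groups overlap for *Crtc2* and *Sik1*.

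The final step, in the endoplasmic reticulum, held both the highest and the lowest difference of the 5 pathway genes. *G6pc1* (ENSMUSG00000078650, chr11:101367561-101377903, forward strand), the catalytic subunit of glucose-6-phosphatase that releases free glucose, measured 22.4 and 31.6 TPM in WT livers, against 56.4 and 173 TPM in KO livers. Both KO values lay above both WT values, and KO replicate 3 stood well above KO replicate 1. The WT mean was 27.0 ± 6.47 TPM and the KO mean 115 ± 82.3 TPM (SD, n = 2 each), a ratio of 4.24, and the difference was 1.85 (SE 0.52) on the log2 scale. Without KO replicate 3 it was 1.05, and without KO replicate 1 it was 2.65, so that the size of the difference depended on which KO library was used while its direction did not.

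*Pck1* (ENSMUSG00000027513, chr2:173153048-173159273, forward strand), the carboxykinase that commits oxaloacetate to glucose, was at 476 and 560 TPM in WT and at 581 and 853 TPM in KO. The lower KO value was only slightly above the higher WT value. The ratio of the means was 1.38 and the log2 difference was 0.45 (SE 0.24), which became 0.17 without KO replicate 3. After scaling the libraries to an equal upper quartile, KO replicate 1 (534 scaled TPM) fell between the WT libraries (499 and 589), the groups overlapped and the difference was 0.31.

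The remaining 3 genes of the pathway were lower in both KO libraries. *Pcx* (ENSMUSG00000024892, chr19:4510472-4621752, forward strand), which carboxylates pyruvate in the mitochondrion, was at 99.5 and 76.1 TPM in WT and at 61.6 and 66.4 TPM in KO, a log2 difference of −0.44 (SE 0.20). *Slc37a4* (ENSMUSG00000032114, chr9:44396852-44402968, forward strand), the transporter that brings glucose 6-phosphate to G6PC1, was at 68.3 and 91.0 TPM in WT and at 61.0 and 52.1 TPM in KO, a difference of −0.48 (SE 0.21). With any 1 library left out, *Pcx* stayed between −0.63 and −0.25 and *Slc37a4* between −0.68 and −0.27. *Slc37a4* therefore differed in the opposite direction to *G6pc1*, the gene of the enzyme it supplies. *Fbp1* (ENSMUSG00000069805, chr13:62864753-62888282, reverse strand), the bisphosphatase that opposes phosphofructokinase, was at 534 and 521 TPM in WT and at 495 and 459 TPM in KO. Its difference, −0.15 (SE 0.16), was the smallest of the 7 genes whose groups did not overlap and was within 1 SE of 0.

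Ratios within a library are free of its scale. The ratio of *G6pc1* to *Slc37a4* TPM was 0.328 and 0.347 in WT and 0.925 and 3.32 in KO. *Pck1* to *Pcx* was 4.79 and 7.36 in WT and 9.43 and 12.9 in KO, and *Pck1* to *Fbp1* was 0.891 and 1.07 in WT and 1.17 and 1.86 in KO. That these ratios were higher in KO follows from the values that chose the genes, since each divides a gene that was higher in both KO libraries by one that was lower in both. The summed TPM of the 5 pathway genes, in contrast, was 1201 and 1280 in WT and 1255 and 1604 in KO, and these groups overlapped, with *Fbp1* and *Pck1* making up most of each sum.

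**Figure D2:**
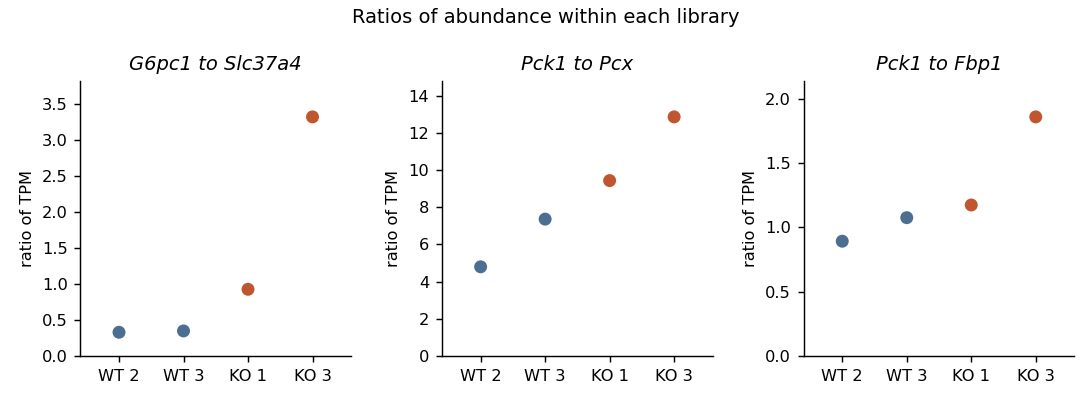
Ratios of TPM within each library (vertical axes, starting at 0) for 3 pairs of gluconeogenic genes in the 4 libraries (WT in blue, *Usp21* KO in red). The ratio of *G6pc1* to *Slc37a4* is 0.328 and 0.347 in WT and 0.925 and 3.32 in KO, and in every panel KO replicate 3 is the highest point.

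Of the genes downstream of FOXO1, *Igfbp1* (ENSMUSG00000020429, chr11:7197782-7202546, forward strand), a secreted binding protein for insulin-like growth factors that insulin represses, was at 6.28 and 18.4 TPM in WT and at 21.5 and 42.3 TPM in KO. WT replicate 3 was close to KO replicate 1, and WT replicate 2 was far below both. The ratio of the means was 2.59 and the log2 difference 1.39 (SE 0.54), falling to 0.69 without WT replicate 2 and to 0.92 without KO replicate 3. *Foxo1* (ENSMUSG00000044167, chr3:52268336-52353221, forward strand) itself, the factor that drives *Igfbp1* and *G6pc1* when insulin is low, was at 3.55 and 4.95 TPM in WT and at 6.47 and 7.74 TPM in KO. Here the libraries of each genotype lay closer together, and the difference of 0.63 (SE 0.25) stayed between 0.44 and 0.83 with any 1 library left out.

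The regulators of the CREB branch among the 9 genes, *Crtc2* and *Sik1*, did not separate the genotypes. *Crtc2* (ENSMUSG00000027936, chr3:90254163-90264125, forward strand) was at 8.60 and 6.92 TPM in WT and at 9.16 and 5.49 TPM in KO, with a difference of −0.10 (SE 0.29). *Sik1* (ENSMUSG00000024042, chr17:31844250-31855804, reverse strand), the kinase that CREB induces and that in turn inhibits the CRTC coactivators, was at 1.07 and 2.97 TPM in WT and at 2.02 and 0.870 TPM in KO, with a difference of −0.27 (SE 0.43). For both genes the KO libraries held the values on either side of a WT library, and the sign of the difference changed when 1 of 2 particular libraries was left out (WT replicate 2 or KO replicate 3 for *Crtc2*, WT replicate 3 or KO replicate 3 for *Sik1*).

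**Figure D3:**
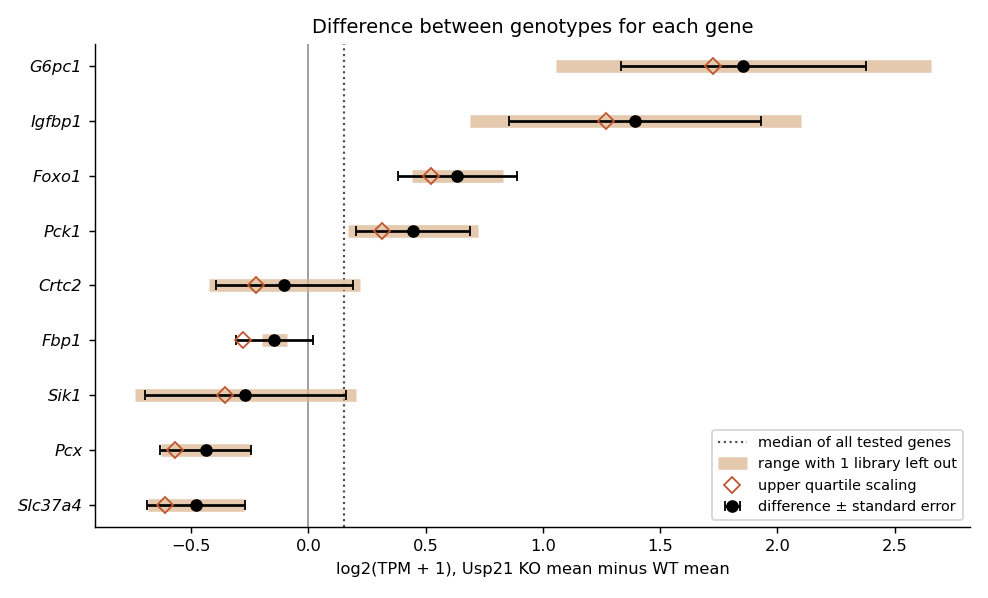
Difference between genotypes (horizontal axis, KO minus WT mean of log2(TPM + 1)) for the 9 genes, as points with SE, with bars for the range when 1 library is left out and diamonds for upper quartile scaling. *G6pc1* (1.85), *Igfbp1* (1.39), *Foxo1* (0.63) and *Pck1* (0.45) lie to the right of 0 in every setting drawn, while the bars of *Crtc2* and *Sik1* cross 0.

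In all, 4 of the 9 genes were higher in both KO libraries, beside 34.4% of all tested genes, and 3 were lower in both, beside 10.9%. At least 2-fold higher were 2 genes (*G6pc1* and *Igfbp1*; 2.59% of all tested genes) and at least 2-fold lower were 0 (1.10%). Over all tested genes, 8 had a limma adjusted p under 0.05 (0.0835%), and no p is given for the 9 genes. Because these values chose the genes, nothing is read from these shares. The median difference was −0.10 over the 9 genes and 0.15 over all tested genes. Upper quartile scaling moved the latter to 0.04, changed the 2-fold calls over all genes from 248 higher and 105 lower to 173 and 137, and changed the non-overlapping calls from 3292 and 1046 to 2350 and 1783. Under it 3 of the 9 genes were higher in both KO libraries, since *Pck1* overlapped, and *Fbp1*, *Pcx* and *Slc37a4* stayed lower in both.

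The libraries of each genotype were not alike for these genes. *G6pc1*, *Pck1*, *Igfbp1* and *Foxo1* were each lowest in WT replicate 2, then WT replicate 3, KO replicate 1 and KO replicate 3, an order that 5.88% of all tested genes had, and *Fbp1* had the reverse order, as did 3.26%. This order was noticed after the values were seen. Over the 4 libraries the log2 values of *G6pc1* correlated with those of *Pck1* (r = 0.98) and inversely with those of *Fbp1* (r = −0.998), and *Igfbp1* correlated with *Foxo1* (r = 0.97). With n = 4 libraries that share the genotype difference these coefficients are descriptions. Among 427 genes that averaged 10 TPM or more and had an SD of at least 0.5 (log2), the mean of the centred log2 profiles of the 9 genes was most like the profile of *Hsp90aa1* (r = 0.997), *Tat* (0.995), *Cnot1* (0.987), *Slc25a51* (0.986) and *Trp53inp1* (0.985), and 13 genes reached 0.95. That mean follows the members with the widest range and is not shared by all 9: *Igfbp1* (r = 0.998 with it), *Foxo1* (0.97), *Pck1* (0.90) and *G6pc1* (0.89) ran with it, *Pcx* (−0.89), *Fbp1* (−0.89), *Crtc2* (−0.66) and *Slc37a4* (−0.42) ran against it, and *Sik1* was at 0.03. *Hsp90aa1*, a cytosolic chaperone, was at 49.6 and 96.1 TPM in WT and at 113 and 176 TPM in KO.

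The other enzymes and carriers between lactate and glucose had differences in both directions, with more of them lower in KO. Of 25 tested genes, 9 had higher and 16 lower KO means (36.0%, beside 66.7% and 33.3% of all tested genes with higher and lower means), 1 was higher and 1 lower at an unadjusted p under 0.05 (8.45% and 2.04% of all tested genes), and 0 passed the adjusted threshold in limma. In both KO libraries 4 were higher (16%, beside 34.4% of all tested genes) and 9 lower (36%, beside 10.9%). The median of the 25 genes was −0.16. The 7 glycolytic enzymes drawn along the pathway, which also run in reverse for gluconeogenesis, had differences from −0.20 to 0.30. The higher gene was *Got1*, the cytosolic aspartate aminotransferase that returns oxaloacetate carbon from aspartate for PCK1. It was at 98.1 and 83.8 TPM in WT and at 263 and 150 TPM in KO, a difference of 1.13 (SE 0.29, limma adjusted p = 0.464). The lower gene was *Slc2a2*, the bidirectional glucose transporter GLUT2 of the hepatocyte membrane, at 105 and 69.3 TPM in WT and at 31.0 and 52.8 TPM in KO, a difference of −1.06 (SE 0.33, limma adjusted p = 0.464).

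**Figure D4:**
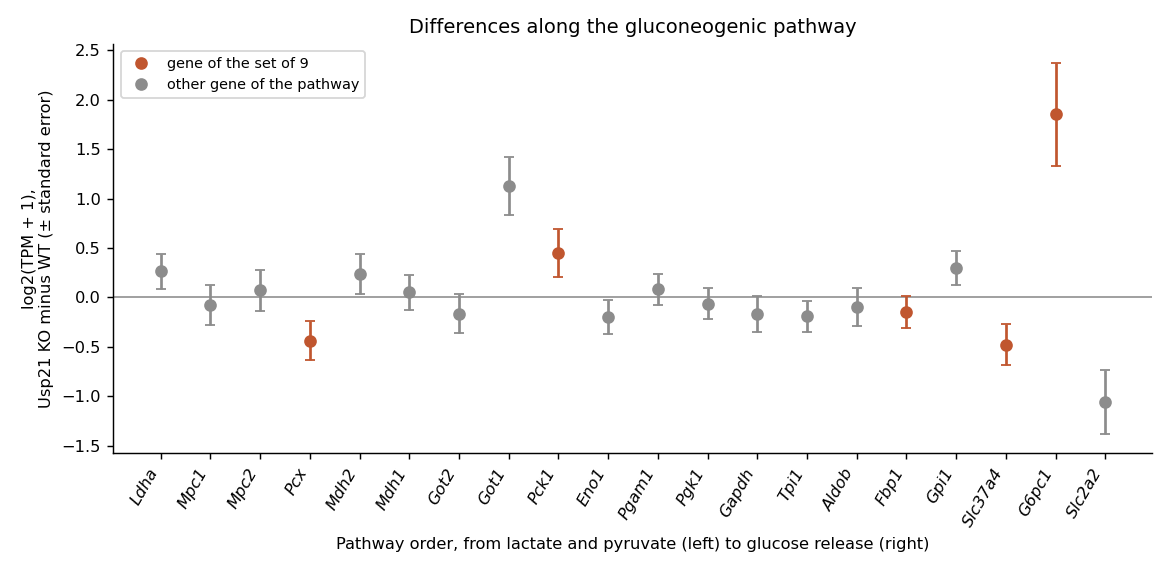
Difference between genotypes (vertical axis, KO minus WT mean of log2(TPM + 1) with SE) for 20 genes in pathway order from lactate to glucose release, with the genes described here in red and the other pathway genes in grey. *G6pc1* (1.85), *Got1* (1.13) and *Pck1* (0.45) stand above, *Slc2a2* (−1.06), *Slc37a4* (−0.48) and *Pcx* (−0.44) stand below, and the glycolytic enzymes between them lie from −0.20 to 0.30.

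Genes that carry amino acids and glycerol into the pathway were mixed. Of 18 tested genes, 7 were higher (38.9%, beside 34.4% of all tested genes) and 3 lower (16.7%, beside 10.9%) in both KO libraries, so that the higher share was close to that over all genes. At an unadjusted p under 0.05, 2 were higher and 3 lower (8.45% and 2.04% over all genes). The median was 0.30, or 0.17 after upper quartile scaling. *Tat*, the tyrosine aminotransferase that glucocorticoids and cAMP induce, was at 278 and 458 TPM in WT and at 543 and 705 TPM in KO (0.79, SE 0.29). *Slc7a2*, a cationic amino acid transporter, differed by 0.75 (SE 0.23). In the other direction, *Slc38a3*, a glutamine transporter, was at 485 and 491 TPM in WT and at 308 and 268 TPM in KO (−0.76, SE 0.17), and *Prodh*, which begins proline breakdown, differed by −0.78 (SE 0.31). The limma adjusted p of these 4 genes lay between 0.443 and 0.473.

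Upstream of the 9 genes, components of glucagon, cAMP and CREB signalling had higher KO means in 16 of 20 tested genes (80.0%, beside 66.7% of all tested genes). Of these 20, 11 were higher (55.0%, beside 34.4%) and 1 lower (5%, beside 10.9%) in both KO libraries, and 3 were higher and 0 lower at an unadjusted p under 0.05 (8.45% and 2.04% over all genes). The median was 0.28, or 0.16 after upper quartile scaling. *Creb1*, *Ep300* and *Crtc3*, with WT means of 0.901, 0.902 and 0.845 TPM, passed the filter of 1 TPM only through their KO values. They are counted among the 11 genes higher in both KO libraries, and *Creb1* also among the 3 higher at an unadjusted limma p under 0.05. *Crem*, which encodes CREB-related factors including the cAMP-induced repressor ICER, was at 11.5 and 14.5 TPM in WT and at 30.8 and 42.0 TPM in KO (1.41, SE 0.24, limma adjusted p = 0.291). *Sik3*, a kinase of the family of *Sik1*, was at 3.83 and 5.14 TPM in WT and at 10.6 and 7.54 TPM in KO (0.87, SE 0.27, limma adjusted p = 0.464). *Sik1* had no such separation.

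Of 13 genes that CREB is known to induce, 8 were tested, with a median of 0.79, or 0.69 after upper quartile scaling. Of these 8, 6 were higher (75%, beside 34.4% of all tested genes) and 1 lower (12.5%, beside 10.9%) in both KO libraries. At an unadjusted p under 0.05, 5 were higher and 1 lower (8.45% and 2.04% over all genes). *Crem* is among them, as is *Irs2*, an insulin receptor substrate that fasting induces, at 1.08 and 0.656 TPM in WT and at 2.16 and 3.09 TPM in KO (0.95, SE 0.29, limma adjusted p = 0.464). The lower gene was *Per1*, at 3.84 and 4.07 TPM in WT and at 1.90 and 1.59 TPM in KO (−0.86, SE 0.24, limma adjusted p = 0.464), which is also a core clock gene. *Ppargc1a*, the coactivator PGC-1α that joins CREB to *Pck1* and *G6pc1*, was singled out for that role after its values were seen. It was at 0.681 and 0.482 TPM in WT and at 2.43 and 1.19 TPM in KO (0.80, SE 0.33, limma adjusted p = 0.477). *Irs2* and *Ppargc1a*, with WT means of 0.868 and 0.582 TPM, passed the filter of 1 TPM only through their KO values. *Fos*, also of this list, averaged 0.901 TPM (1.56 in WT and 0.241 in KO) and was not tested. Nor were *Nr4a1*, *Nr4a2*, *Nr4a3* and *Pde4d*, which were also under the filter.

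Among FOXO factors and FOXO-induced genes, other than *Foxo1*, *G6pc1* and *Igfbp1*, 9 of 15 tested genes were higher in both KO libraries (60%, beside 34.4% of all tested genes) and 0 lower (beside 10.9%). At an unadjusted p under 0.05, 7 were higher and 0 lower (8.45% and 2.04% over all genes), and the median was 0.67, or 0.58 after upper quartile scaling. *Pdk4*, the kinase that shuts pyruvate dehydrogenase and so spares pyruvate for *Pcx*, was listed at 0.457 and 0.423 TPM in WT and at 1.25 and 2.69 TPM in KO (1.00, SE 0.33, limma adjusted p = 0.464). *Pdk4*, with a WT mean of 0.440 TPM, passed the filter of 1 TPM only through its KO values. *Irs2* and *Ppargc1a*, of which the same holds, belong to this group as well. Several genes are thus counted in more than 1 group, and the groups are not independent. No gene of these 4 groups of 18, 20, 8 and 15 passed the adjusted threshold in limma.

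Transcription factors and coregulators of gluconeogenesis had a median of 0.47 over 17 tested genes, or 0.34 after upper quartile scaling. In both KO libraries 8 were higher (47.1%, beside 34.4% of all tested genes) and 0 lower (beside 10.9%), and 3 were higher and 0 lower at an unadjusted p under 0.05 (8.45% and 2.04% over all genes). *Klf15*, a factor that fasting induces and that activates amino acid breakdown, was at 56.4 and 56.7 TPM in WT and at 81.2 and 95.5 TPM in KO (0.63, SE 0.17). *Sirt1*, a deacetylase that acts on PGC-1α and FOXO1, differed by 0.66 (SE 0.26). Glucocorticoid-induced genes had a median of 0.27 over 13 genes (0.15 after upper quartile scaling), with 5 higher and 1 lower at an unadjusted p under 0.05, beside the same 8.45% and 2.04%. Of these 13, 7 had higher KO means (53.8%, beside 66.7% of all tested genes). In both KO libraries 6 were higher (46.2%, beside 34.4%) and 2 lower (15.4%, beside 10.9%). Among the 5 higher genes, *Tat*, *Dusp1* and *Klf9* also belong to the CREB-induced group. *Zbtb16* was at 0.773 and 0.904 TPM in WT and at 4.61 and 2.83 TPM in KO (1.34, SE 0.30), and the phosphatase gene *Dusp1* differed by 0.92 (SE 0.27). *Zbtb16*, with a WT mean of 0.838 TPM, passed the filter of 1 TPM only through its KO values. The gene that was lower at an unadjusted p under 0.05 was *Per1* (−0.86, SE 0.24). The limma adjusted p of these genes lay between 0.443 and 0.472.

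Genes that feeding and insulin induce had lower KO means in 8 of 10 tested genes (beside 33.3% of all tested genes). Of the 10, 0 were higher and 3 lower in both KO libraries (30.0% lower, beside 10.9%), 0 were higher and 2 lower at an unadjusted p under 0.05 (8.45% and 2.04% over all genes), and the median was −0.34, or −0.46 after upper quartile scaling. *Srebf1*, the lipogenic factor that insulin induces, was at 58.1 and 64.3 TPM in WT and at 27.3 and 20.7 TPM in KO (−1.32, SE 0.20, limma adjusted p = 0.242). *Pklr*, the liver pyruvate kinase that opposes PCK1, was at 33.8 and 48.2 TPM in WT and at 19.2 and 29.5 TPM in KO (−0.74, SE 0.28, limma adjusted p = 0.472). The group leaned on WT replicate 3: its summed TPM was 308 and 1027 in WT and 323 and 201 in KO, and the median was 0.04 without that library and −0.85 without WT replicate 2.

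The medians of the CREB-induced and FOXO groups kept their direction with any 1 library left out (0.62 to 0.88 and 0.58 to 0.70). Those of several other groups also kept it but were smaller in size without 1 of the libraries. Without KO replicate 1 the median was 0.01 for glucocorticoid-induced genes, 0.18 for the gluconeogenic factors, 0.10 for amino acid and glycerol entry and 0.18 for glucagon, cAMP and CREB regulators. For the other enzymes and carriers the sign changed, from −0.16 with all libraries to 0.01 without KO replicate 3.

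**Figure D5:**
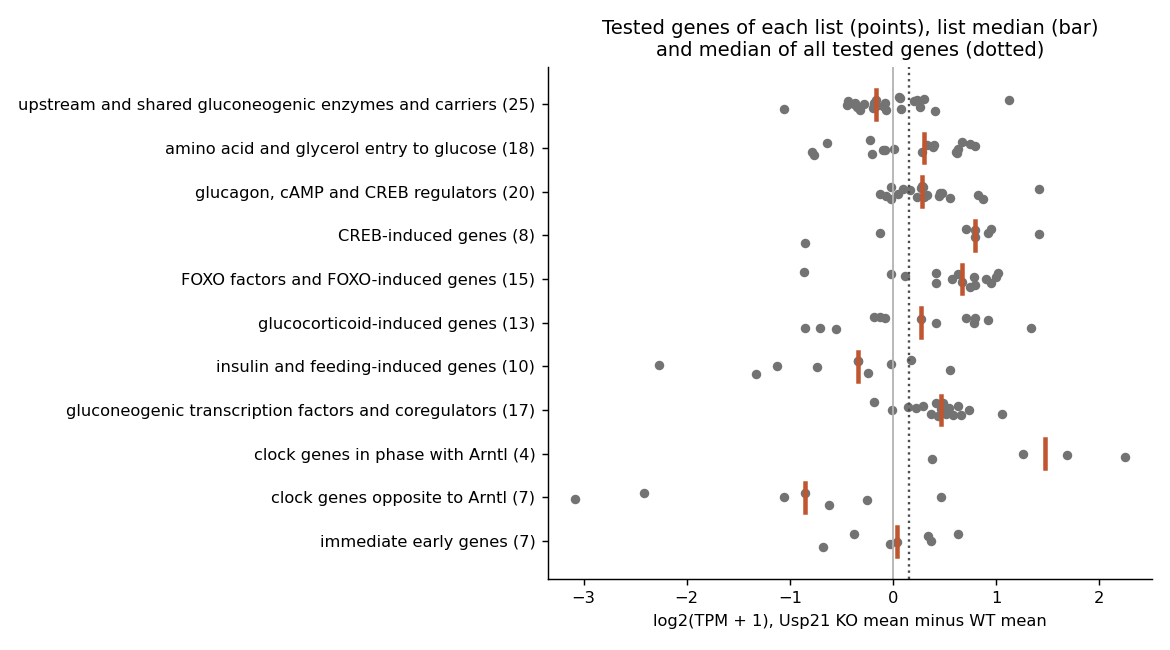
Difference between genotypes (horizontal axis, KO minus WT mean of log2(TPM + 1)) for every tested gene of 11 gene groups (points, with the number of genes in brackets), with the group median as a bar and the median of all tested genes (0.15) as a dotted line. FOXO-induced (0.67) and CREB-induced (0.79) genes lie mostly to the right, feeding-induced genes have a median of −0.34, and the clock groups lie furthest from 0 (1.47 and −0.86).

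Some features of the libraries moved with the genotype beside these values, and their part in the differences of the 9 genes was not tested. Clock genes in phase with *Arntl* were higher in KO, 4 of 4 tested by their means (beside 66.7% of all tested genes), with a median of 1.47. Of these, 3 were higher at an unadjusted p under 0.05 (beside 8.45% of all tested genes). *Arntl*, the clock activator BMAL1, was at 0.241 and 0.243 TPM in WT and at 5.89 and 4.05 TPM in KO (2.25, SE 0.28, limma adjusted p = 0.154), and *Nfil3*, a repressor of D-box genes, differed by 1.69 (SE 0.36, limma adjusted p = 0.436). *Arntl* passed the filter of 1 TPM only through its KO values. Of 7 tested clock genes of the opposite phase, 6 were lower in both KO libraries (85.7%, beside 10.9% of all tested genes) and the median was −0.86. *Dbp*, the D-box activator, was the only gene of all these groups past the adjusted threshold, at 56.8 and 41.3 TPM in WT and at 4.73 and 4.97 TPM in KO (−3.08, SE 0.23, limma adjusted p = 0.0193). A difference in the time of collection or in feeding and a difference of the clock itself cannot be told apart here. Of 7 tested immediate early genes, 0 passed an unadjusted p under 0.05 (8.45% higher and 2.04% lower over all genes), and the median was 0.04. The list summed to 40.0 and 141 TPM in WT, against 84.0 and 44.9 TPM in KO, so that WT replicate 3 was highest. Leaving out WT replicate 2 gave a median of −0.57, and leaving out WT replicate 3 gave 0.60.

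Genes of the hepatocyte zones were counted because gluconeogenesis is a periportal function. Leaving out *Pck1* and *G6pc1*, 9 of 11 periportal genes had higher KO means (81.8%, beside 66.7% of all tested genes), 2 were higher in both KO libraries (18.2%, beside 34.4%) and 0 lower. Their median was 0.16, close to the 0.15 of all tested genes, and it was −0.15 without KO replicate 1. The whole list of 13 summed to 6959 and 7005 TPM in WT, against 8969 and 6568 TPM in KO, so these sums overlapped. Of 9 tested pericentral genes, 9 had lower KO means (beside 33.3%) and 7 were lower in both KO libraries (77.8%, beside 10.9%). Their median was −0.44, and the list summed to 6099 and 4149 TPM in WT, against 4158 and 3785 TPM in KO, which overlapped as well. The shares of cells of each zone and the RNA per cell cannot be told apart in bulk tissue.

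Hepatocyte markers were abundant in all libraries labelled liver. The 8 hepatocyte markers summed to 76346 and 60762 TPM in WT, against 62919 and 53134 TPM in KO, with 3 higher and 5 lower means and a median of −0.10. Of other cells, Kupffer cell markers had 2 higher and 6 lower means of 8 (median −0.24), sinusoidal endothelial markers 8 higher of 8 (0.20), stellate cell markers 5 higher of 5 tested (0.52), cholangiocyte markers 2 higher of 2 tested (0.74) and red cell markers 1 higher and 4 lower of 5 tested (−0.22). Beside these counts, 66.7% of all tested genes had higher and 33.3% lower KO means. Of 8 lymphocyte and neutrophil markers, 2 were tested, and the sum was 7.15 and 45.6 TPM in WT, against 7.94 and 4.38 TPM in KO. Of markers of the kidney, the other gluconeogenic organ, *Slc34a1*, *Kap*, *Slc5a2* and *Umod* were listed at 0 in all libraries and the sum over 5 genes was at most 0.0471 TPM. Also listed at 0 were *Prss2*, *Cpa1*, *Ctrb1*, *Pnlip* and *Amy2a5* of the pancreas and *Plin1* of adipocytes. The 1 pancreatic marker and the 1 adipocyte marker that were tested had medians of −0.27 and 0.80. *Usp21* was at 4.07 and 6.29 TPM in WT and at 1.64 and 2.93 TPM in KO (−0.92, SE 0.33), lower in both KO libraries but not at 0. TPM is summed per gene and the KO allele lacks exons 3 and 4, so the KO values do not measure intact transcript.

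The depth behind the TPM values is not known, since TPM does not record it. In the second deposited table, of TMM-normalized CPM, whole reads could be recovered for 100% of values (within 0.02 reads), and those in the table summed to 102898 to 148164 reads per library. That table held 0 for 50189 of 55335 genes in all 4 libraries, and the zeros were not limited to scarce transcripts. Of 817 genes that averaged 100 TPM or more and were in both tables, 530 (64.9%) had 0 reads in it, *Gapdh*, at a mean of 1029 TPM, among them. Its zeros therefore do not show that a gene was not expressed, and its sums are not taken as the depth of the TPM values. Of the 9 genes, 5 (*G6pc1*, *Pcx*, *Slc37a4*, *Igfbp1* and *Foxo1*) had 0 reads in it, *Pck1* had 3 in all, and *Fbp1*, *Crtc2* and *Sik1* had 1 each. The values of these genes rest on the TPM table alone.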

How the data were processed

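RNA was extracted with ISOGEN II and sequenced on an Illumina MiSeq, 2 libraries per genotype. The authors deposited transcript abundance summed per gene as TPM (35739 genes), and a second table of counts divided by TMM library sizes (55335 genes), taken here as a signal because the columns do not share a total. The submitters' processing notes name Salmon, HTSeq, edgeR, Partek, deepTools and the build mm10, with versions not given in the sources used here. The remaining tables, which hold log values of the same data, were not used. Samples were grouped by their labels. The 9 genes, the 23 gene lists and the tests were chosen with earlier results of these data known.

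The 9581 genes averaging 1 TPM or more were fitted as log2(TPM + 1) in limma 3.58.1 (R 4.3.3; lmFit, eBayes with trend, prior df 3.62), two-sided, with Benjamini-Hochberg adjustment at 0.05. The study's own analysis used ANOVA in Partek. A log2 difference on this scale understates changes of low genes. The filter used the mean over all libraries, so a gene under 1 TPM in WT could pass through its KO values, or the reverse. Among genes that passed through their KO values were *Arntl*, *Pdk4*, *Ppargc1a*, *Zbtb16*, *Irs2*, *Creb1*, *Ep300* and *Crtc3*, and they are included in the counts of their lists. At least 2-fold means a log2 difference of at least 1. The p-values measure only the spread between these libraries. Named are the 9 genes, up to 2 genes per direction and list with non-overlapping groups and an unadjusted p under 0.05 (instead those past the adjusted threshold where there were any), the 5 genes most like the mean profile, and *Usp21*. Alternatives were pseudocounts of 0.1 and 5, no filter or a mean of at least 5 TPM, upper quartile scaling, unmoderated variances, the TMM-normalized CPM table, each library left out, and, added after seeing the data, edgeR 4.0.16 (quasi-likelihood) on reads recovered from that table. The scripts were tested on simulated data. Coordinates are GENCODE M21 on GRCm38, and promoters are from RefSeq on GRCm38.p6.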

Additional observations from a re-analysis of the deposited data

How the results depend on the processing

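The number of genes past the adjusted threshold, 8 in limma, was 4 with no filter, 1 from the TMM-normalized CPM, 0 without moderated variances (1005 genes had an unadjusted p under 0.05 in the moderated fit), 13 with edgeR on the recovered reads and 0 to 7 with 1 library left out. The count of 353 genes past 2-fold became 820 with the pseudocount at 0.1, 115 with it at 5, 203 at a mean of at least 5 TPM, 3134 from the CPM, 651 with edgeR and 463 to 695 with 1 library left out. The number with non-overlapping groups, 4338, was 2612 at a mean of at least 5 TPM, 1108 from the CPM and 6729 to 7371 with 1 library left out, where 1 library stands against 2. For the 9 genes, the median of −0.10 was 0.17 at a mean of at least 5 TPM, where *Sik1* is not tested, 1.47 from the CPM and −0.20 to 0.20 with 1 library left out. The number changed at least 2-fold, 2, was 4 from the CPM and 1 to 2 with 1 library left out, and the number higher in both KO libraries, 4, was 0 from the CPM and 4 to 5 with 1 library left out. These CPM figures cover only the 4 genes above 0 in that table, *Pck1*, *Fbp1*, *Crtc2* and *Sik1*, which rest on 1 to 3 reads each. The other 5 of the 9 genes, *G6pc1* and *Igfbp1* among them, had 0 reads there and were not fitted from the CPM. Signs changed only for *Fbp1* (1.68 from the CPM), *Crtc2* (1.47 from the CPM, 0.04 without WT replicate 2, 0.22 without KO replicate 3) and *Sik1* (1.47 from the CPM, 0.20 without WT replicate 3, 0.08 without KO replicate 3). The cause of these changes was not tested. No paired analysis was made because the labels do not say which WT and KO libraries, if any, belong together.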
